A study of Gossypium hirsutum with 45 samples.

Results

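The circadian clock of plants is an internal timer of the day, built from transcription factors that switch each other on and off in turn. REVEILLE proteins are MYB factors of the morning side, pseudo-response regulators (named APRR in the annotation) are repressors that follow one another through the day, and EARLY FLOWERING 3 (ELF3) is the scaffold of the evening complex, a repressor formed in Arabidopsis with ELF4 and LUX. Adagio proteins are blue-light receptors with an F-box, which mark clock and flowering regulators for breakdown. In Arabidopsis the clock also gates responses to drought and abscisic acid, so that one stress can have different effects at different hours.

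Of the 75376 genes in the deposited table, 10 described as members of this machinery are reported here. They were chosen by their descriptions, which name REVEILLE 5 and 7, ELF3, APRR1, APRR2, APRR7, and Adagio 1 and 3, and all 10 were found. ELF3 and Adagio 1 are each present as an A copy and a D copy, the counterparts on the 2 subgenomes of this allotetraploid plant. The coordinates are those of the table, whose genome build the sources used here do not name.

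RNA was taken from leaf, root and stem of seedlings of upland cotton (Gossypium hirsutum, variety Hengmian HD008) that had reached the 3-leaf stage. They grew in sterilized sand at 25 °C under 16 h of light and 8 h of dark. All groups are of this variety, and the drought treatment was 10% PEG 6000, a polymer that draws water away from roots without entering cells. Each tissue was sampled untreated (0 min) and at 10, 30, 60 and 180 min of treatment. Every one of these 15 groups has 3 libraries, 45 in total. No untreated plants of the later times are among the libraries, and the hour of day is not given, so time of day and PEG cannot be told apart for any change over time reported here. Nothing says whether the libraries of a group came from separate plants, so p-values measure the spread between libraries, which may be technical. The levels are bulk RNA of whole organs, in which fewer cells of a type and less RNA per cell cannot be told apart.

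Levels are the deposited FPKM, fragments per kilobase of gene after a scaling of each library, comparable between genes because they are per length. This scaling did not follow the total of reads alone. In root 180 min replicate 1 (17905378 reads) 1 read on a gene of 1 kilobase was 0.0859 FPKM. In root 0 min replicate 2 (17428959 reads) it was 0.0584 FPKM. The effect on root values is given below. The libraries held 16373617 to 21774520 reads, and the members rested on between 4 reads (APRR2 in a root library at 10 min) and 5455 reads (REVEILLE 7 in a leaf library at 180 min). The 282 genes described as photosynthetic summed to 19601 to 39434 FPKM in leaf, 2934 to 9161 in stem and 66.7 to 408 in root, the order of the tissue labels. A list of 328 root genes summed to 11647 to 29963 FPKM in root and at most 5168 elsewhere. The 164 wood genes summed to 1116 to 3799 in stem and overlapped root (1179 to 5399) and leaf (979 to 2050), so they do not set stem apart. In the accounts below, the 3 values of a group follow the replicate numbers, except in root at 0 min, where they are replicate 2 and then 2 libraries with the same name in the table, called x and y.

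Changes were tested with limma on log2(FPKM + 1), within each tissue, and called at an adjusted p below 0.05, with p adjusted over all genes kept, those that reached 1 FPKM in 3 or more libraries. All 10 genes passed this filter in every tissue, APRR2 in root only through its 3 libraries at 180 min. On this scale the change of weakly expressed genes comes out too small.

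At 180 min, 7 of the 10 clock genes were higher in root and 1 lower, 4 were higher in stem and 1 lower, and 3 were higher in leaf and 1 lower. Of all genes tested, 28.5% were higher and 26.9% lower in root, 15% and 14.3% in stem, and 9.89% and 9.61% in leaf. Since the members were chosen with earlier results of these data known, these shares do not test them. Without APRR2, which the filter let in through the root 180 min libraries, the root count was 6 of 9 higher and 1 lower. The median log2 change of the 10 genes at that time was 1.28 in root (1.27 without APRR2), 0.43 in stem and 0.00 in leaf, and that of all genes tested was between -0.04 and 0.00. REVEILLE 7, REVEILLE 5 and APRR2 rose and Adagio 3 fell in each of the 3 tissues. The ELF3 A copy, APRR7 and the Adagio 1 D copy passed the test as higher in root and not in leaf or stem. The heat map of changes shows these values.

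**Figure D1:**
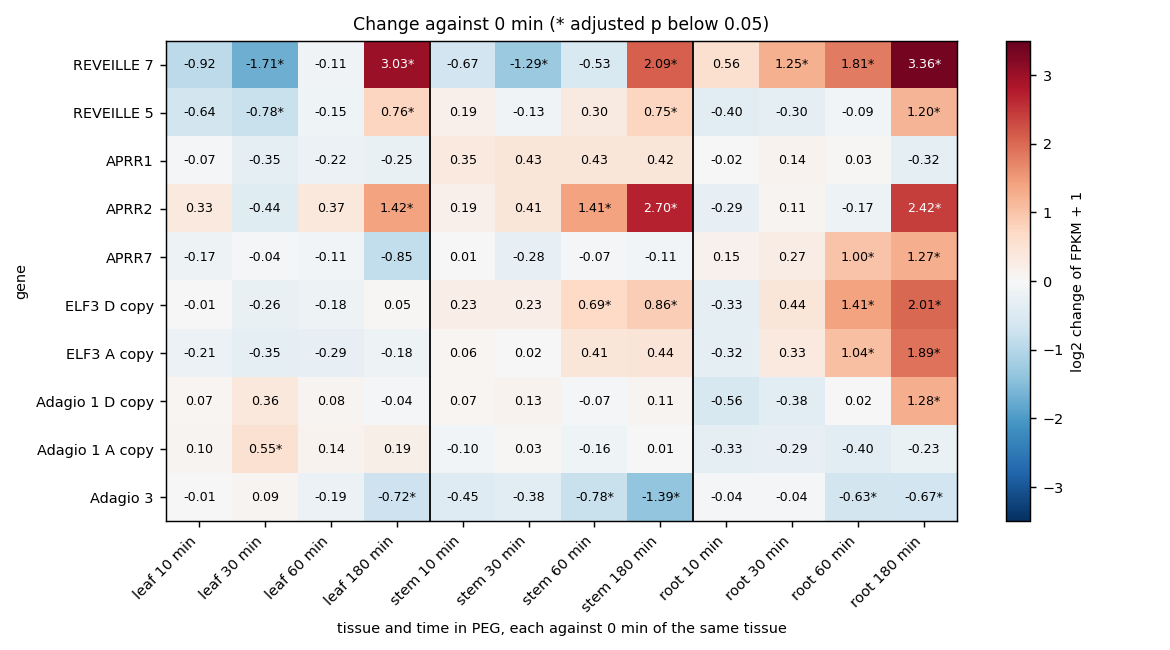
Log2 change of FPKM + 1 for the 10 clock genes (rows) at each time in PEG against 0 min of the same tissue (columns; leaf, stem, root), from limma with 3 libraries a group. Red is higher and blue lower than at 0 min, and an asterisk marks an adjusted p below 0.05. At 180 min REVEILLE 7 has the largest rise in leaf (3.03) and root (3.36), and APRR2 in stem (2.70).

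Fewer members were called before 180 min. At 60 min 4 of 10 were higher and 1 lower in root (19.5% and 19.1% of all genes), 2 higher and 1 lower in stem (13.3% and 11.6%), and 0 in either direction in leaf (2.04% and 1.9%), where limma gave 0 at an unadjusted p below 0.05. At 30 min 1 was higher and 2 lower in leaf (8.33% and 9.5%), 1 higher and 0 lower in root (17.6% and 16.6%), and 0 higher and 1 lower in stem (1.61% and 0.759%). At 10 min limma called 0 of 10 in each tissue. The background then was 0.884% higher and 0.625% lower in leaf, 8.16% and 7.03% in root, and 0.0021% and 0% in stem. At an unadjusted p below 0.05 the 10 min counts were 2 in leaf, 1 in root and 2 in stem. Over all 5 times together, limma's F test called 8 members in root, 5 in stem and 4 in leaf, against 66.8%, 34.4% and 30% of all genes. The root count includes APRR2, whose call there is no separate evidence, since the filter let it in only through its 180 min libraries. In root the members' count at 30 min was below the share of all genes, and their F test count was near it.

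REVEILLE 7 (Gohir.D12G273200, D12:62883673-62887093, plus strand) spanned the most FPKM of the 10 genes, from 1.95 to 112. On a fold scale APRR2 (0.0962 to 68.4 FPKM) and APRR7 (0.297 to 42.8) spanned more. The Arabidopsis namesake of REVEILLE 7 is a phytochrome-responsive MYB factor that peaks in the morning. In leaf it stood at 8.17, 9.57 and 12.2 FPKM at 0 min, 3.83, 2.98 and 8.91 at 10 min, and 2.28, 2.22 and 2.47 at 30 min. It was back at 7.08, 11.3 and 9.21 at 60 min, and reached 112, 88.4 and 67.4 at 180 min. Leaf thus showed a trough and then a peak, and neither the 30 min nor the 180 min libraries overlapped those of 0 min.

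In leaf the mean FPKM fell 4.29-fold by 30 min (log2 change -1.71, SE 0.30, adjusted p = 0.00222). By 180 min it was 8.95-fold above that of 0 min (log2 change 3.03, SE 0.30, adjusted p = 1.75e-05). Stem followed the same order, with 7.76, 6.46 and 12.9 FPKM at 0 min, 2.46, 2.51 and 4.15 at 30 min, and 46.9, 49.6 and 28.1 at 180 min. The stem trough was less firm (log2 change -1.29, SE 0.28, adjusted p = 0.0380). It lost its call without any of 7 libraries in turn, namely stem 0 min replicates 1 and 3 (adjusted p = 0.0526 and 0.153), 10 min replicate 2 (0.0501), 30 min replicates 1, 2 and 3 (0.126, 0.0877 and 0.0578) and 60 min replicate 1 (0.0547), and with its 6 libraries fitted alone (0.122). The call was also lost without the filter (0.0533) and with the replicate numbers fitted as a block (0.0759). The stem rise at 180 min was 4.59-fold (log2 change 2.09, SE 0.28, adjusted p = 0.000257).

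Root had no trough. REVEILLE 7 stood there at 2.13, 1.95 and 2.19 FPKM at 0 min, 3.08, 2.59 and 5.46 at 10 min, 4.91, 6.33 and 8.12 at 30 min, 8.81, 10.8 and 9.91 at 60 min, and 45.2, 33.3 and 19.1 at 180 min. Every root library from 10 min on lay above all 3 of 0 min, and the gene was called higher at 30 min (log2 change 1.25, SE 0.28, adjusted p = 0.00356), at 60 min (1.81, adjusted p = 0.000222) and at 180 min (3.36, SE 0.28, adjusted p = 4.08e-07). The 180 min mean was 15.5 times the 0 min mean. Each tissue had its highest level at 180 min, and root alone stood apart at 0 min. Leaf was then above root (log2 difference 1.81, adjusted p = 5e-06) and root below stem (-1.65, adjusted p = 3e-05), while leaf and stem overlapped. The course over time differed between the tissues by limma's interaction F test (adjusted p = 5.59e-06).

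REVEILLE 5 (Gohir.D08G153800, D08:51166677-51170171, minus strand) belongs in Arabidopsis to the group of REVEILLE factors that activate evening genes. In leaf it stood at 6.01, 8.39 and 9.92 FPKM at 0 min, 2.64, 5.64 and 4.86 at 30 min, and 12.9, 12.9 and 17.2 at 180 min. The direction at both times matched REVEILLE 7, and neither group overlapped 0 min. The changes were smaller, with log2 values of -0.78 (SE 0.23, adjusted p = 0.0342) at 30 min and 0.76 (SE 0.23, adjusted p = 0.0340) at 180 min. The first was lost without leaf 0 min replicate 2 (adjusted p = 0.101), 0 min replicate 3 (0.106) or 30 min replicate 1 (0.142), and with the 6 libraries of that comparison fitted alone (0.0948). The second was lost without 0 min replicates 1 or 2 (0.131 and 0.0709) or any library of 180 min (0.0612, 0.0631 and 0.123 for replicates 1, 2 and 3).

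Root carried the highest REVEILLE 5 level. Its libraries ranged from 6.56 to 13.3 FPKM up to 60 min, with 7.48, 9.12 and 13.3 at 0 min, and then stood at 23.8, 29.6 and 18.7 at 180 min. That was a 2.41-fold rise (log2 change 1.20, SE 0.20, adjusted p = 0.000177). Stem went from 5.24, 5.25 and 6.01 FPKM to 10.5, 11.9 and 7.75 at 180 min (log2 change 0.75, SE 0.16, adjusted p = 0.00447), with no overlap between the groups. With the 6 libraries of that comparison fitted alone this call was lost (0.0508).

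**Figure D2:**
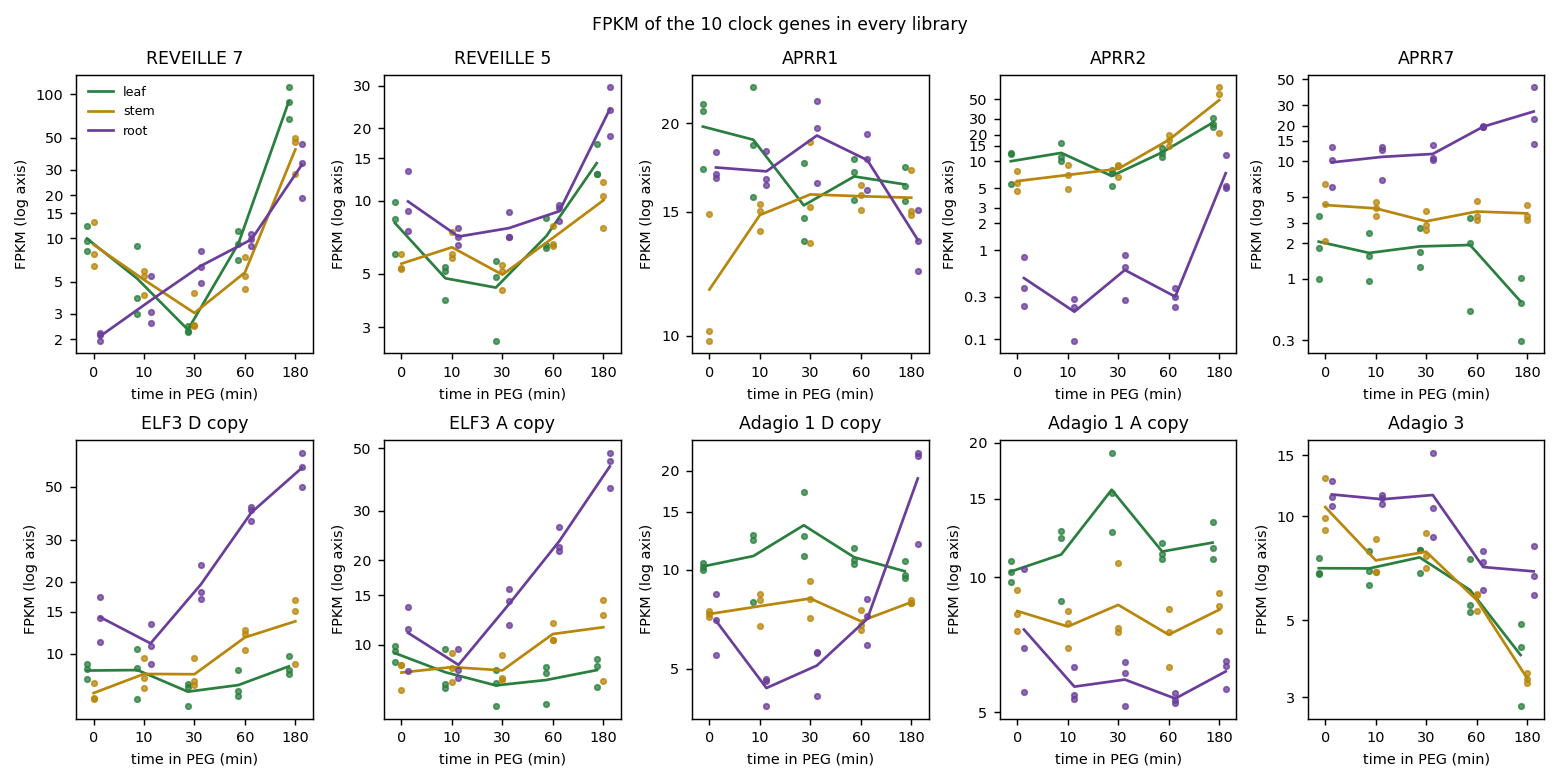
FPKM of the 10 clock genes in every library (points) against time in PEG in min (categories, not to scale), with lines through the group means of leaf, stem and root (3 libraries each). Each vertical axis is a log axis with its own range. REVEILLE 7 dips to 2.32 FPKM in leaf at 30 min and rises to 89.3 at 180 min, and ELF3 climbs in root from 14.3 to 60.1 FPKM (D copy).

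APRR1 (Gohir.A03G067700, A03:18860841-18866208, plus strand), known in Arabidopsis as TOC1, the evening repressor of the morning MYB genes, was the steadiest of the regulators. Its 45 libraries lay between 9.85 FPKM (stem 0 min) and 22.5 FPKM (leaf 10 min). Leaf went from 21.3, 20.8 and 17.2 at 0 min to 15.5, 17.4 and 16.3 at 180 min, stem from 14.9, 9.85 and 10.2 to 14.9, 17.2 and 15, and root from 17.0, 16.8 and 18.2 to 12.3, 15.1 and 13.6. The root groups did not overlap, while those of leaf and stem did. No change against 0 min was called, with log2 changes at 180 min of -0.25 in leaf, 0.42 in stem (adjusted p = 0.0706) and -0.32 in root (adjusted p = 0.0592). The stem value was called without stem 0 min replicate 1 (adjusted p = 0.0127), the highest of its group. With all stem libraries it was called when each was divided by its own total of reads (0.0449) or weighted (0.0112). It was also called in 1 fit of all 45 libraries (0.0199). The root value was called without root 30 min replicate 1 (adjusted p = 0.0445) and when each library was divided by its own total of reads (log2 change -0.88, adjusted p = 4.91e-05) or scaled by quantiles (-0.70, adjusted p = 0.000417).

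Scaling bears on all root values. Dividing by the library total in place of the authors' scaling moved the median log2 change of all genes at 180 min in root by -0.43, and by -0.15 at 30 and at 60 min, while no other comparison moved by over 0.1. On the own-total scale the median gene in root at 180 min was at -0.44. All 7 root rises at 180 min kept their sign there, and of their calls only that of APRR7 was lost. Under quantile scaling the 7 rises kept sign and call.

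APRR2 (Gohir.A08G159400, A08:112804872-112810578, minus strand) carries the family name, though its relatives in tomato and pepper are known for plastid development and fruit colour rather than for time keeping. In root it was close to absent up to 60 min, with 0.375, 0.235 and 0.847 FPKM at 0 min and no library over 0.872. At 180 min its root libraries held 5.27, 11.8 and 5.02 FPKM, 15.2 times the 0 min mean (log2 change 2.42, SE 0.26). Since it passed the filter in root only through those 3 libraries, its test there is taken from the fit without a filter (adjusted p = 9.12e-06).

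In stem APRR2 stood at 5.70, 7.70 and 4.61 FPKM at 0 min, 19.6, 15.1 and 17.6 at 60 min, and 57.2, 68.4 and 21.1 at 180 min. Stem replicate 3 at 180 min was well below the other libraries of its group, yet above all libraries of 60 min. The rise was called at 60 min (log2 change 1.41, SE 0.36, adjusted p = 0.0146) and at 180 min (2.70, SE 0.36, adjusted p = 0.000224). The 60 min call was lost without stem 0 min replicate 3 (adjusted p = 0.0611) or 60 min replicate 3 (0.0518). Leaf went from 12.5, 12 and 5.55 FPKM to 30.9, 24.3 and 26.4 at 180 min, without overlap (log2 change 1.42, SE 0.26, adjusted p = 0.00215).

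Photosynthetic genes moved in root at the same time. Their summed level was 92.9 to 162 FPKM at 0 min, was 66.7 to 84.3 at 30 min, and was 280 to 408 at 180 min, with 31 of the 282 genes at a mean of at least 1 FPKM at 0 min and 37 at 180 min. The lowest leaf library held 19601 FPKM. In leaf the sum was lower at 180 min (19601 to 24851) than at 0 min (28779 to 33858), and in stem it was lower at 60 min (2934 to 3485) than at 0 min (4991 to 6447). Their part in the changes of the clock genes was not tested.

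APRR7 (Gohir.D09G156300, D09:46137042-46143813, minus strand), a daytime repressor of the morning MYB genes in Arabidopsis, had its highest group means in root. At 0 min the root libraries still overlapped those of stem. Root stood at 10.2, 13.1 and 6.02 FPKM at 0 min, 20.2, 19.5 and 19.4 at 60 min, and 42.8, 22.8 and 14.1 at 180 min. The 180 min libraries were spread widely, and the lowest lay just above the highest of 0 min. APRR7 rose at 180 min (log2 change 1.27, SE 0.35, adjusted p = 0.00664), a call lost when each library was divided by its own total (adjusted p = 0.0873). At 60 min it was also called (log2 change 1.00, SE 0.35, adjusted p = 0.0348). This call was lost without root 0 min replicate 2 (adjusted p = 0.0625), 0 min library y (0.151) or any library of 60 min (0.0770, 0.0786 and 0.0744), under own-total scaling (0.0682), quantile scaling (0.0546) and without the filter (0.0505). Stem held 2.08 to 6.35 FPKM over all times. Leaf held 0.297 to 3.39 FPKM, and its 180 min libraries of 0.297, 0.619 and 1.00 touched those of 0 min (3.39, 1.81 and 0.994), with a log2 change of -0.85 that was not called.

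ELF3 rose in root from both subgenomes. The D copy (Gohir.D07G023300, D07:2536658-2541795, plus strand) stood in root at 14.2, 11.2 and 17.4 FPKM at 0 min, 9.06, 10.8 and 13.4 at 10 min, 16.9, 18.2 and 23.6 at 30 min, 35.9, 40.2 and 41.3 at 60 min, and 60.6, 69.7 and 49.95 at 180 min. The A copy (Gohir.A07G022156, A07:2627127-2632214, plus strand) stood at 11.4, 8.05 and 13.6 FPKM at 0 min, 22.3, 21.6 and 26.3 at 60 min, and 45, 48.3 and 36 at 180 min. For both copies all libraries of 60 and 180 min lay above all of 0 min, and the 180 min libraries lay above those of 60 min. The D copy rose 2.74-fold by 60 min (log2 change 1.41, SE 0.20, adjusted p = 0.000103) and 4.21-fold by 180 min (2.01, SE 0.20, adjusted p = 1.83e-06). The A copy rose 2.12-fold (1.04, SE 0.19, adjusted p = 0.000768) and 3.91-fold (1.89, SE 0.19, adjusted p = 2.21e-06).

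In leaf neither copy was called at any time. The D copy ranged from 6.06 to 10.5 FPKM and the A copy from 6.06 to 9.88 FPKM over the 15 leaf libraries. In stem the D copy went from 6.46, 6.54 and 7.57 FPKM at 0 min to 10.4, 12.6 and 12.2 at 60 min and 15.2, 16.9 and 9.06 at 180 min. It was called at 60 min (log2 change 0.69, SE 0.20, adjusted p = 0.0249) and at 180 min (0.86, SE 0.20, adjusted p = 0.00687). The 60 min call was lost without stem 0 min replicates 1 or 2 (adjusted p = 0.0507 and 0.0716) or 60 min replicates 2 or 3 (0.0784 and 0.0833). The 180 min call was lost when the 6 libraries of that comparison were fitted alone (0.0649).

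The A copy in stem reached 12.8, 14.4 and 7.46 FPKM at 180 min from 8.5, 6.91 and 8.48, with replicate 3 inside the 0 min range. Its log2 change of 0.44 was not called (adjusted p = 0.108). Without stem 180 min replicate 3 it was (adjusted p = 0.00415). With all libraries it was also called under own-total scaling (0.0337) and when the libraries were weighted (0.0136). That library was the lowest of its group for 7 of the 10 members, and replicate 2 the highest for 8.

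The Adagio 1 copies parted in root. Adagio 1 is the annotation's name for ZEITLUPE, which in Arabidopsis binds APRR1 (TOC1) in the dark and marks it for breakdown. The D copy (Gohir.D05G004600, D05:440811-445470, plus strand) stood in root at 7.03, 5.50 and 8.46 FPKM at 0 min, 4.58, 3.86 and 4.67 at 10 min, 5.92, 7.24 and 8.13 at 60 min, and 12, 22.1 and 22.7 at 180 min. It rose 2.71-fold by 180 min (log2 change 1.28, SE 0.23, adjusted p = 0.000300), without overlap with 0 min. The A copy (Gohir.A05G004200, A05:607306-612035, plus strand) held 6.96, 5.56 and 10.4 FPKM at 0 min and 5.63, 6.52 and 6.35 at 180 min. Those groups overlapped, and its log2 change of -0.23 was not called (adjusted p = 0.273), though it was called lower under own-total scaling (-0.74, adjusted p = 0.00184).

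In leaf the Adagio 1 A copy stood at 9.78, 10.9 and 10.3 FPKM at 0 min and 15.4, 19.0 and 12.6 at 30 min, a non-overlapping 1.52-fold rise (log2 change 0.55, SE 0.16, adjusted p = 0.0350). The call was lost without any library of leaf 0 min (adjusted p = 0.0975, 0.0734 and 0.0716 for replicates 1, 2 and 3), without 30 min replicates 1 or 2 (0.0888 and 0.133), and with its 6 libraries fitted alone (0.0715). It was also lost with the replicate numbers fitted as a block (0.0581). The D copy had 12.7, 17.3 and 11.0 FPKM at 30 min against 9.99, 10.5 and 10.2, a log2 change of 0.36 that was not called. In stem neither copy was called, and the D copy held 6.55 to 9.24 FPKM and the A copy 6.31 to 10.8.

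Adagio 3 (Gohir.D01G139200, D01:44105408-44109649, plus strand) is named FKF1 in Arabidopsis, where it removes the CYCLING DOF repressors of flowering in long days. It went the other way from the REVEILLE genes. Stem fell from 12.8, 9.90 and 9.08 FPKM at 0 min to 5.30, 5.91 and 5.96 at 60 min and 3.29, 3.38 and 3.53 at 180 min, and at each later time all stem libraries were below all of 0 min. The 180 min mean was 3.12 times lower than that of 0 min (log2 change -1.39, SE 0.14, adjusted p = 4.68e-05), and the fall was called from 60 min on (-0.78, SE 0.14, adjusted p = 0.00328). Leaf went from 6.85, 7.55 and 6.80 FPKM to 4.19, 2.83 and 4.89 at 180 min (log2 change -0.72, SE 0.17, adjusted p = 0.01).

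Root held the highest Adagio 3 levels, 11.4, 10.7 and 12.6 FPKM at 0 min, and 6.12, 7.34 and 7.91 at 60 min and 8.17, 5.90 and 6.69 at 180 min. It was called lower at 60 min (log2 change -0.63, SE 0.18, adjusted p = 0.0136) and at 180 min (-0.67, SE 0.18, adjusted p = 0.00620). The 60 min call was lost without root 0 min library y (adjusted p = 0.0508) or 60 min replicate 1 (0.0558).

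Between neighbouring times the members had most calls in the longest step, from 60 to 180 min, and so had all genes tested. In that step 6 of 10 were called in root (31.8% of all genes), 3 in leaf (10.3%) and 3 in stem (11.1%). Without APRR2 the root count was 5 of 9. REVEILLE 7 rose in it in all 3 tissues, by log2 values of 3.14 in leaf (adjusted p = 2.49e-05), 2.63 in stem (0.000420) and 1.55 in root (0.000982). In root REVEILLE 5 (1.29, adjusted p = 0.000325), APRR2 (2.60, 2.85e-05 without the filter), the Adagio 1 D copy (1.26, 0.000989) and the ELF3 A copy (0.85, 0.00425) rose in the same step. The sixth in root was the ELF3 D copy (0.60, adjusted p = 0.0337), whose call was lost under own-total scaling (0.339), under quantile scaling (0.278) and without root 60 min replicates 1, 2 or 3 (0.103, 0.0712 and 0.0579) or 180 min replicates 1 or 2 (0.0727 and 0.137).

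The other calls of the 60 to 180 min step in leaf and stem were each lost without one or another library. In leaf REVEILLE 5 (0.91, adjusted p = 0.0236) was lost without 60 min replicates 2 or 3 (0.0689 and 0.0844) or 180 min replicates 2 or 3 (0.0526 and 0.103). APRR2 in leaf (1.05, adjusted p = 0.0216) was lost without 60 min replicates 1 or 3 (0.0768 and 0.0647) or 180 min replicates 1 or 3 (0.0814 and 0.0618). In stem APRR2 (1.29, adjusted p = 0.0366) was lost without any library of 60 min (0.0654, 0.112 and 0.104 for replicates 1, 2 and 3), without 180 min replicates 1 or 2 (0.141 and 0.106) and without the filter (0.0507). That call was also lost with the replicate numbers fitted as a block (0.0588). Adagio 3 in stem (-0.61, adjusted p = 0.0179) was lost without 60 min replicates 2 or 3 (0.0615 and 0.0728) or 180 min replicate 1 (0.0690).

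From 30 to 60 min 3 of 10 were called in root (16.3% of all genes), 1 in leaf (4.87%) and 0 in stem (8.39%). These were the ELF3 D copy (log2 change 0.97, adjusted p = 0.00445), the ELF3 A copy (0.71, adjusted p = 0.0205) and Adagio 3 (-0.59, adjusted p = 0.0379) in root, and REVEILLE 7 in leaf (1.60, adjusted p = 0.00956). The ELF3 A copy's step was lost without root 30 min replicates 1 or 2 (adjusted p = 0.0622 and 0.0554) or 60 min replicate 3 (0.0789), and that of Adagio 3 without any of 8 libraries in turn, with an adjusted p of up to 0.160 (without root 30 min replicate 3). From 10 to 30 min in root 1 of 10 was called (4.66% of all genes), the ELF3 D copy (0.77, adjusted p = 0.0434), and it was lost without any of 10 libraries in turn. In the same step 0 members were called in leaf (1.26% of all genes) and 0 in stem (0%).

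Differences of the change between tissues were tested in a fit of all 45 libraries. The 180 min change differed between leaf and root for 4 of 10 genes (34.5% of all genes), between leaf and stem for 2 (10.9%) and between root and stem for 7 (28.1%). The whole course differed between tissues for 8 of 10 (49.1% of all genes), all but the Adagio 1 A copy (adjusted p = 0.163) and Adagio 3 (0.0810). REVEILLE 5 lost this call under quantile scaling (0.134) and without one or another library (up to 0.0798). APRR7 lost it under own-total scaling (0.123), quantile scaling (0.0803) and without root 180 min replicate 1 (0.0641). Conversely, Adagio 3 was called under quantile scaling (0.0301) and the Adagio 1 A copy under own-total scaling (0.00332). The ELF3 copies stood most clearly apart in root, with a change lower in leaf than in root by 1.96 (D copy, adjusted p = 3.54e-07) and 2.08 (A copy, adjusted p = 7.67e-08) on the log2 scale. APRR7 (-2.12, adjusted p = 0.000999) and the Adagio 1 D copy (-1.33, adjusted p = 9.69e-05) also had a lower change in leaf than in root. For REVEILLE 7 (-0.33, adjusted p = 0.594), REVEILLE 5 (-0.44, adjusted p = 0.249) and Adagio 3 (-0.05, adjusted p = 0.896) no difference between leaf and root was detected.

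**Figure D3:**
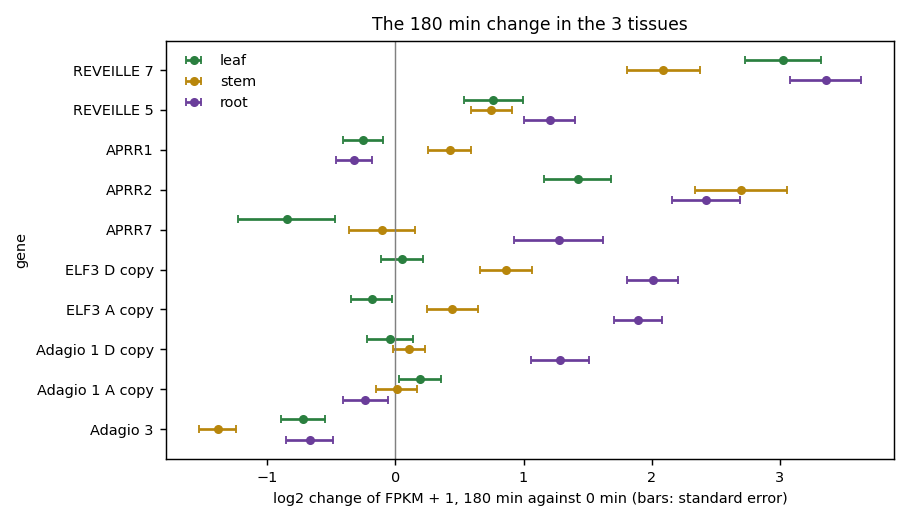
Log2 change of FPKM + 1 at 180 min against 0 min (horizontal axis) of the 10 clock genes (vertical axis) in leaf, stem and root, with bars of 1 standard error from limma (3 libraries a group). REVEILLE 7, REVEILLE 5 and APRR2 are above 0 and Adagio 3 below 0 in all tissues, while the ELF3 copies are at 2.01 and 1.89 in root against 0.05 and -0.18 in leaf.

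Before treatment the tissues already differed. At 0 min 7 of 10 genes differed between leaf and root (47.2% of all genes), 2 between leaf and stem (30.7%) and 6 between root and stem (42%). REVEILLE 7 (log2 difference 1.81) and APRR2 (2.84, adjusted p = 1.48e-09) were higher in leaf than in root, and so by less were the Adagio 1 D copy (0.51, adjusted p = 0.0198) and A copy (0.42, adjusted p = 0.0282). The D copy's call was lost without leaf 0 min replicate 2 (0.0541) or root 0 min library x (0.137). The A copy's call was lost without leaf 0 min replicates 2 or 3 (0.0866 and 0.0547), root 0 min replicate 2 (0.0904) or library x (0.252). APRR7 (-1.83, adjusted p = 4.59e-05), the ELF3 D copy (-0.66, adjusted p = 0.00336) and Adagio 3 (-0.63, adjusted p = 0.00139) were lower in leaf than in root.

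Between leaf and stem, APRR1 was higher in leaf (0.74, adjusted p = 9.97e-05) and Adagio 3 lower (-0.51, adjusted p = 0.0139), the latter lost without stem 0 min replicate 1 (0.108). Root was above stem in APRR1 (0.56, adjusted p = 0.00156), REVEILLE 5 (0.72, adjusted p = 0.00398), APRR7 (1.07, adjusted p = 0.0131) and the ELF3 D copy (0.94, adjusted p = 8.95e-05). It was below stem in REVEILLE 7 and APRR2 (-2.23, adjusted p = 3.32e-07). Of these, REVEILLE 5 was lost without root 0 min library y (0.0579), and APRR7 without root 0 min library x (0.0835) or stem 0 min replicate 3 (0.130).

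Ordered by mean FPKM over the 15 groups, 5 genes were highest in root at 180 min. The ELF3 D copy (60.1 FPKM) and A copy (43.1 FPKM) were followed by root at 60 min (39.1 and 23.4) and root at 30 min (19.6 and 13.9), and neither of these steps overlapped for either copy. REVEILLE 5 was highest in root (24.0), then leaf (14.3) and stem (10.1) at 180 min, and these 3 groups did not overlap each other, while stem overlapped root at 0 min (9.96). APRR7 in root at 180 min (26.6) overlapped root at 60 min (19.7), which was clear of root at 30 min (11.5). The Adagio 1 D copy in root at 180 min (18.9) overlapped leaf at 30 min (13.7).

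REVEILLE 7 was highest in leaf at 180 min (89.3 FPKM), clear of stem (41.5), which overlapped root (32.5), and these 3 groups were clear of the other 12. APRR2 was highest in stem at 180 min (48.9), which overlapped leaf at 180 min (27.2), and the 4 other root groups (0.203 to 0.599) were clear below everything else. Adagio 3 was lowest in stem (3.40) and leaf (3.97) at 180 min, which overlapped, and highest in root at 0 min (11.5). For APRR1 and the Adagio 1 A copy, 0 of the 14 neighbouring pairs in the order were free of overlap.

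The ratio of D to A copy was compared within libraries. The sources used here do not say how reads that fit both copies were counted, and the library kit named in the labels does not mark strand, so values of copies and of overlapping genes are uncertain. For ELF3 the D copy was above the A copy in 15 of 15 root libraries (ratio 1.19 to 1.86, median 1.39), in 10 of 15 leaf libraries (0.829 to 1.20) and in 8 of 15 stem libraries (0.760 to 1.21). Root at 60 min had the highest ELF3 ratios, 1.61, 1.86 and 1.57, against 1.24, 1.40 and 1.27 at 0 min. In stem the ELF3 ratio was 0.760, 0.947 and 0.893 at 0 min and 1.19, 1.17 and 1.21 at 180 min, without overlap (exact permutation p = 0.1, the smallest that 3 against 3 libraries allow).

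For Adagio 1 the ratio in root was 1.01, 0.989 and 0.811 at 0 min, 1.13, 1.36 and 1.47 at 60 min, and 2.13, 3.40 and 3.58 at 180 min. At 180 min it averaged 3.03 ± 0.79 (SD, n = 3) against 0.937 ± 0.110 at 0 min. The groups did not overlap, and the two-sided exact permutation test of 3 against 3 libraries gave p = 0.1, the smallest it allows. In leaf the Adagio 1 ratio stayed between 0.724 and 1.03, and in stem between 0.758 and 1.20.

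**Figure D4:**
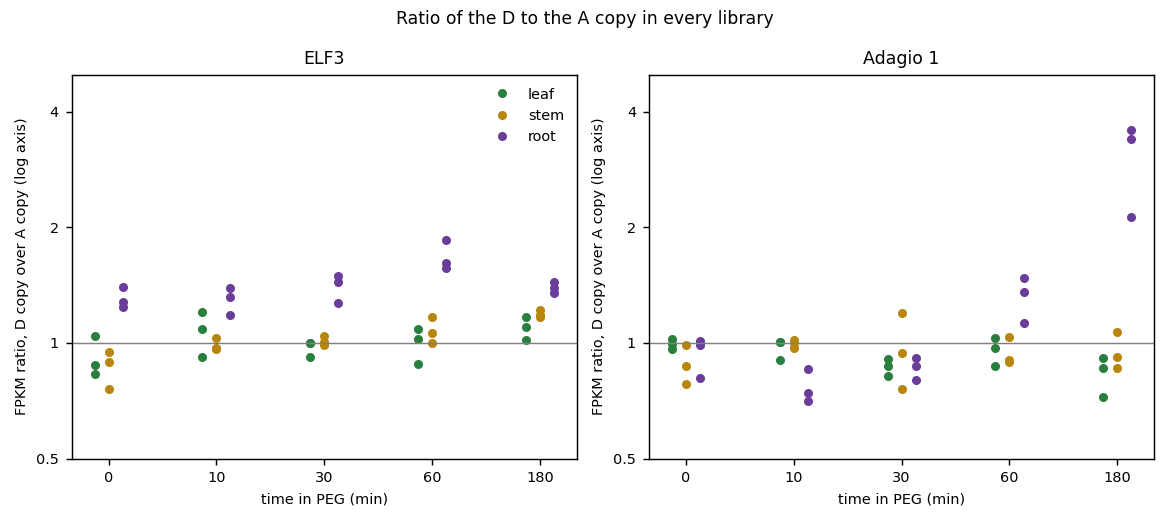
Ratio of D copy to A copy FPKM (vertical log axis) in every library against time in PEG in min (categories), for ELF3 (left) and Adagio 1 (right) in leaf, stem and root, 3 libraries a group. The grey line marks equal levels. ELF3 points of root are above it in 15 of 15 libraries, and the Adagio 1 points of root reach 2.13 to 3.58 at 180 min.

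Over the 15 group means, each centred on its tissue, the ELF3 copies had a Pearson r of 0.98 with each other, and the Adagio 1 copies 0.26. REVEILLE 7 and REVEILLE 5 had 0.87, APRR2 had 0.86 with REVEILLE 5 and 0.79 with REVEILLE 7, and Adagio 3 had -0.83 with APRR2 and -0.79 with REVEILLE 7. These are descriptions, since the means share the 0 min and 180 min groups and the largest changes fall at 180 min.

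Among 54622 genes, the described genes with the course most like each member were named by the same r. Whether any of them is a member's counterpart on the other subgenome was not checked. Those of REVEILLE 7 and REVEILLE 5 lie on A12 and A08, and these members on D12 and D08. REVEILLE 7 was nearest to Gohir.A12G272500 (0.99, Myb-like DNA-binding domain), REVEILLE 5 to Gohir.A08G132400 (0.98, Myb-like), and the Adagio 1 D copy to Gohir.A12G080900 (0.96, Myb-like). APRR2 was nearest to Gohir.D10G103200 (0.98, SCREAM2), APRR7 to Gohir.A13G016700 (0.95, LIM domain) and APRR1 to Gohir.A12G076600 (0.90, BTB/POZ domain). The ELF3 D copy was nearest to Gohir.D06G200600 (0.99, polyadenylate-binding protein-interacting protein 4) and its A copy to Gohir.A04G139500 (0.98, rubber elongation factor protein). Adagio 3 was nearest to Gohir.D11G016700 (0.97, NTM1-like 9) and the Adagio 1 A copy to Gohir.A10G189200 (0.85, ABC transporter I family member 17).

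The table holds 5 more genes with the same names. A further Adagio 1 (Gohir.A08G019300) rose in root at 180 min from 5.62 ± 2.01 to 12.3 ± 3.89 FPKM (SD, n = 3, log2 change 1.00, adjusted p = 0.00285), as the member D copy did. A further REVEILLE 5 (Gohir.A10G180450) rose in root from 4.10 ± 0.499 to 10.6 ± 1.41 FPKM (1.19, adjusted p = 0.000641). Of the 2 further APRR1 genes, Gohir.D11G114700 fell in root from 8.76 ± 1.13 to 5.86 ± 0.925 FPKM (-0.51, adjusted p = 0.0134), and Gohir.D13G087700 was not called at 180 min in any tissue.

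A further Adagio 3 (Gohir.A12G152400) fell in leaf from 3.09 ± 0.887 to 0.521 ± 0.143 FPKM (log2 change -1.41, adjusted p = 0.000427) but rose in root from 2.18 ± 0.493 to 4.16 ± 1.14 FPKM (0.68, adjusted p = 0.0111). In root it went against the member, which fell by 0.67 on the log2 scale. In stem it held 0.833 ± 0.137 and 0.556 ± 0.0996 FPKM and was below the filter.

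A wider list of 45 other genes with clock words in their descriptions holds these 5, other REVEILLE, LNK, LUX and ELF4-like genes, and some that only share the wording (flowering MYB factors, splicing factors). At 180 min 18 of the 35 tested in root were higher and 4 lower, 9 of 32 in stem higher and 4 lower, and 1 of 33 in leaf higher and 5 lower. Called either way, that is 62.9% of the list in root (55.3% of all genes), 40.6% in stem (29.3%) and 18.2% in leaf (19.5%). The median log2 change of the list at 180 min was 0.62 in root, 0.39 in stem and 0.13 in leaf.

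LNK1 (Gohir.D12G015200), a coactivator that works with REVEILLE factors in Arabidopsis, had the smallest F p of the list in root. It went there from 0.764 ± 0.261 FPKM at 0 min through 3.08 ± 0.911 at 30 min and 17.9 ± 7.32 at 60 min to 50.7 ± 9.19 at 180 min (SD, n = 3, log2 change 4.87, adjusted p = 1.46e-08). TIME FOR COFFEE (Gohir.A09G214700) came next in root, with 12.9 ± 3.44 FPKM at 0 min, 7.32 ± 0.484 at 10 min and 19.9 ± 1.47 at 180 min (0.62, adjusted p = 0.00456). The name LUX, a partner of ELF3 in the evening complex, or ELF4-LIKE, after its partner ELF4, is on 8 genes of the list. None of them is described as ELF4 itself. Of these 8 genes, 3 were lower and 1 higher in leaf at 180 min, against 9.61% lower and 9.89% higher of all genes tested. The leading genes of the list in leaf by F p, a LUX gene and ELF4-LIKE 1, are among those lower. The count is thus no separate evidence. These genes were counted in leaf alone, so root and stem are not covered. One LUX gene (Gohir.A07G100200) went from 3.87 ± 1.27 through 8.44 ± 2.65 at 10 min to 1.20 ± 0.465 at 180 min (-1.13, adjusted p = 0.0112), and ELF4-LIKE 1 (Gohir.D10G248000) from 14 ± 6.39 to 2.36 ± 0.185 (-2.08, adjusted p = 0.000764). Chosen after their values were seen, the other two called were ELF4-LIKE 4 (Gohir.A05G032900), which fell from 4.51 ± 0.504 to 2.50 ± 0.655 FPKM (-0.66, adjusted p = 0.0110), and ELF4-LIKE 2 (Gohir.A10G053100), which rose from 3.14 ± 0.750 to 4.86 ± 0.382 (0.51, adjusted p = 0.0479). The other LUX gene (Gohir.A05G093600) was at 5.41 ± 0.575 and 5.82 ± 0.405 FPKM (0.09, adjusted p = 0.821).

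In stem the list was led by cryptochrome-2 (Gohir.A09G230000), a blue-light receptor, which rose from 9.16 ± 0.906 to 33.2 ± 5.75 FPKM (log2 change 1.74, adjusted p = 5.49e-05). ELF3-like 2 (Gohir.D05G134900) followed, from 1.96 ± 0.283 to 4.24 ± 0.404 FPKM (0.82, adjusted p = 0.00175).

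Genes that matched the clock words stayed in the clock list, the cryptochrome-2 genes among them. A further list of 26 genes has the words of light receptors and their partners in its descriptions. Of these, 5 are PIF1-like helicases, which share only the letters, and 0 of those were tested in any tissue. At 30 min in leaf 0 of 18 tested were higher and 5 lower (27.8% of the list against 17.8% of all genes), and at 180 min 3 were higher and 2 lower (27.8% against 19.5%). At 180 min 6 of 14 were higher and 0 lower in stem (42.9% against 29.3%). In root 2 of 11 were higher and 3 lower, a share below that of all genes (45.5% against 55.3%). In leaf PIF7 (Gohir.A07G069700), a growth-promoting factor held in check by phytochrome, had 0.685 ± 0.158 FPKM at 0 min, 0.0658 ± 0.114 at 30 min and 5.88 ± 1.71 at 180 min (log2 change 2.01, adjusted p = 3.91e-05). Phototropin-2 (Gohir.D13G058200) fell in leaf from 9.07 ± 0.558 to 2.03 ± 0.925 at 30 min and 3.01 ± 0.236 at 180 min (-1.33, adjusted p = 0.000295). In root PIF1 (Gohir.D11G141500) peaked at 30 min (1.47 ± 0.319 to 5.50 ± 1.15) and phytochrome A (Gohir.D11G271900) was lowest then (8.08 ± 1.62 to 2.61 ± 0.245), and neither was called at 180 min. In stem PIF1 genes rose at 180 min, Gohir.D07G208200 to 11.5 ± 1.12 from 6.45 ± 0.944 FPKM (0.75, adjusted p = 0.00144) and Gohir.A11G135300 to 22.3 ± 7.16 from 4.90 ± 0.793 (1.94, adjusted p = 0.000188).

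Another list, of 187 genes, was drawn by words of day-length output (CONSTANS, CCT motif, B-box, cyclic Dof). The CCT motif is shared by other families. By their descriptions 20 genes of the list are TIFY genes, which act in jasmonate signalling, and 7 are GATA factors. Further genes are described by a divergent CCT motif, a response regulator receiver domain or another function, and their family was not checked. The counts of this list are thus not counts of day-length genes. At 180 min 42 of 118 tested were higher and 43 lower in root (72% called against 55.3% of all genes), 40 of 131 higher and 18 lower in stem (44.3% against 29.3%), and 23 of 132 higher and 11 lower in leaf (25.8% against 19.5%). The leading gene in leaf was a B-box gene (Gohir.A03G163300, 0.345 ± 0.157 to 6.92 ± 1.39 FPKM, log2 change 2.55, adjusted p = 1.80e-06), followed by B-box domain protein 30 (Gohir.A04G107400, 0.145 ± 0.125 to 3.74 ± 0.663, 2.05, adjusted p = 4.43e-06). In root a receiver-domain gene (Gohir.D11G016300) rose from 0.215 ± 0.0268 to 7.50 ± 1.62 FPKM (2.79, adjusted p = 1.72e-08). A B-box gene (Gohir.A01G003800) went in root from 3.80 ± 0.932 to 96.3 ± 15.2 at 60 min and 43.9 ± 4.19 at 180 min (3.24, adjusted p = 1.47e-07). In stem CYCLING DOF FACTOR 3 (Gohir.D11G240000), of the family that FKF1 removes in Arabidopsis, rose from 0.853 ± 0.195 to 3.24 ± 0.560 FPKM (1.19, adjusted p = 0.000211), and a B-box gene (Gohir.D05G064900) from 26.0 ± 5.11 to 80.8 ± 7.61 (1.62, adjusted p = 5.66e-05).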

How the data were processed

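RNA sequencing of 45 libraries was analysed from the deposited table. Per the submitters' processing notes, HISAT2 2.0.5 and featureCounts 1.5.0-p3 were used. The build, and how shared reads were counted, are not given in the sources used here. The authors deposited FPKM per gene. Multiplied back by length, 100% of the values above 0 were whole read counts (within 0.01 read), with totals of 16373617 to 21774520 reads; precision of low genes is limited by counting. All value columns were mapped to a group (0 were not).

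Log2(FPKM + 1) was fitted with limma 3.58.1 in R 4.3.3 (empirical Bayes with trend and robust settings), 15 libraries per tissue, or all 45 for differences between tissues. Genes that reached 1 FPKM in 3 or more libraries were kept (APRR2 in root is given from the fit without this filter), and p adjusted over them by Benjamini-Hochberg. The fits were tested on simulated data. Named genes are the 10 members, for each the described gene of highest r, and in each wider list the 2 genes of smallest F p per tissue. Members and lists were chosen with earlier results of these data known. Alternatives were other pseudocounts, filters, scalings, weights, fits, a replicate block and leaving out each library.

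Replicate numbers did not pair the libraries by the correlations given in the closing section, so no block was used in the main fits. Single genes can differ from this. APRR7 in leaf fell from replicate 1 to replicate 3 at 0, 10 and 60 min, but not at 30 or 180 min. No gene identifier (0) matched the RefSeq table, so no sequences are shown.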

Additional observations from a re-analysis of the deposited data

Results flagged for a closer look

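For 13 pairs of gene and tissue contrast the 180 min change differed between tissues by limma's interaction test on log2(FPKM + 1) with 3 libraries a group, adjusted over 54622 genes. For each pair of tissues the value is the change in the first minus that in the second. Leaf minus root was -2.12 for APRR7 (adjusted p = 0.000999), -1.96 for the ELF3 D copy (3.54e-07), -2.08 for the ELF3 A copy (7.67e-08) and -1.33 for the Adagio 1 D copy (9.69e-05). These 4 kept their calls without each library in turn.

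Leaf minus stem was -0.68 for APRR1 (adjusted p = 0.0233) and -0.81 for the ELF3 D copy (0.0397). The first was lost without any of 6 libraries in turn (leaf 0 min replicates 1 and 2, leaf 180 min replicate 1, stem 0 min replicates 2 and 3, stem 180 min replicate 2; adjusted p 0.0534 to 0.0762). The second was lost without any of 8 (replicates 1 and 2 of leaf and stem at 0 and 180 min; 0.0683 to 0.147).

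Root minus stem was 1.27 for REVEILLE 7 (adjusted p = 0.0229), -0.75 for APRR1 (0.00454), 1.38 for APRR7 (0.0345), 1.14 for the ELF3 D copy (0.00107), 1.45 for the ELF3 A copy (4.51e-05), 1.18 for the Adagio 1 D copy (0.000576) and 0.72 for Adagio 3 (0.0169). REVEILLE 7 was lost without root 180 min replicate 1 (0.0934), stem 0 min replicate 3 (0.0884) or stem 180 min replicate 3 (0.0849). APRR7 was lost without root 0 min library y (0.119), root 180 min replicate 1 (0.152), stem 0 min replicates 1 or 2 (0.114 and 0.0642) or stem 180 min replicates 1 or 3 (0.0604 and 0.0664). Adagio 3 was lost without root 180 min replicate 1 (0.0603) or stem 0 min replicate 1 (0.0634). When the libraries were divided by their totals, REVEILLE 7 (0.251), APRR7 (0.263), the ELF3 D copy (0.116), the Adagio 1 D copy (0.0967) and Adagio 3 (0.588) were not called, while APRR1 and the ELF3 A copy were. Under quantile scaling REVEILLE 7 (0.211), APRR7 (0.129) and the ELF3 D copy (0.179) were not called either. APRR7 also lost its call with a pseudocount of 0.1 (0.115).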

How the results depend on the processing

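Of 30 changes against 0 min that were called, 22 were kept without each library in turn and 17 under all alternatives, and no called value turned its direction. Library weights called more, with 11 in place of 7 changes against 0 min in leaf, 14 in place of 9 in stem, 9 in place of 4 steps between neighbouring times in leaf, 17 in place of 10 in root and 10 in place of 3 in stem, 7 in place of 4 in the leaf F test, and 21 in place of 13 differences of the 180 min change. Own-total scaling called 7 stem steps in place of 3. The replicate block called 7 in place of 15 differences between tissues at 0 min and 8 in place of 13 differences of the 180 min change, and 10 in place of 14 changes in root, with root libraries x and y left out because they carry no number. The numbers did not pair the libraries: 9 of 30 same-numbered pairs in leaf, 7 of 22 in root and 9 of 30 in stem had a correlation of deviations over 0.1, and 2 of 15, 6 of 13 and 1 of 15 libraries correlated best with their own number. Leaving out each library gave 4 to 8 changes against 0 min in leaf, 12 to 15 in root and 7 to 11 in stem, 2 to 5 steps in leaf, 6 to 11 in root and 1 to 5 in stem, 13 to 17 tissue differences at 0 min and 10 to 15 differences of the 180 min change. The F test gave 3 to 4 in leaf, 7 to 9 in root and 4 to 6 in stem, and the course 6 to 9. The causes were not tested. APRR2 in root up to 60 min rested on few reads, which limits its fold change.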
